A study of Rattus norvegicus with 6 samples.

Results

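Sinusoidal and vascular endothelial genes of rat liver were followed in carbon tetrachloride (CCl4) and corn oil animals. The set holds 10 genes chosen by symbol for their roles, with earlier results of these data known. They are part of 15639 genes whose probes could be paired with a symbol through the RefSeq accession printed beside each probe. The 10 genes are the VEGF receptor genes Kdr, Flt1 and Flt4, the scavenger and clearance receptor genes Lyve1, Mrc1 and Fcgr2b, the secreted nuclease gene Dnase1l3, and the junction and surface glycoprotein genes Cdh5, Emcn and Cd34. All 10 had a probe and all 10 passed the filter on dim signal, with 18 probes in total. Of those 18 probes, 16 were well above background on all 6 arrays.

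Liver sinusoids are lined by a fenestrated endothelium without a continuous basement membrane, which filters plasma toward hepatocytes and removes modified proteins, immune complexes and hyaluronan from blood through scavenger receptors. VEGF made by hepatocytes and other liver cells acts on receptor tyrosine kinases of these cells and helps to keep them fenestrated. In chronic injury sinusoidal endothelium can take on features of ordinary capillaries, a change called capillarisation, with loss of fenestrae and gain of vascular surface proteins.

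The tested livers came from 3 male Sprague-Dawley rats, an outbred stock, given CCl4 at 100 mg/kg/day, and the control livers from 3 male rats of the same stock given corn oil, the vehicle. All animals were 5 weeks old when purchased, and each gave 1 one-colour array of whole-liver RNA. The length of dosing is uncertain, because the series design gives 28 days and the treatment protocol 9 weeks. Levels are log2 signals minus the array's own 75th percentile, so a negative level lies below that percentile and levels of different probes are not comparable. The 75th percentile itself was 582.6 to 675.6 signal units per array, and 61.9% to 67.3% of probes were well above background. The first slide held CCl4 replicate 1 and the 3 corn oil arrays, and the second slide CCl4 replicates 2 and 3. A comparison within the first slide, or with slide as a fixed block, therefore rests on CCl4 replicate 1 alone. Slide as a block means the fixed block below. A random block, which uses all 6 arrays, is named as such. The hepatocyte gene Alb was at 9.45, 9.51 and 9.86 in CCl4 livers and at 9.79, 9.74 and 9.93 in corn oil livers. The endothelial genes Pecam1, Tek and Erg were well above background on all 6 arrays, whereas Stab2 had no probe paired by accession and was not analysed here. In whole-liver RNA, fewer cells of a type and less RNA per cell cannot be told apart.

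None of the 10 endothelial genes changed at an adjusted p below 0.05 in the limma fit across 11933 genes, and 1, Kdr, had an unadjusted p below 0.05. Among all genes tested, 0.637% passed the adjusted threshold, with 0.0754% of all genes lower in CCl4, and 19.7% the unadjusted one, with 9.77% of all genes lower in CCl4. At the probe level 0 of the 18 endothelial probes passed, against 0.341% of 40478 probes, and 1 had an unadjusted p below 0.05, against 16% of all probes. Log2 changes of CCl4 minus corn oil ran from -0.38 for Kdr to 0.21 for Flt4, with 6 genes positive and 4 negative. Their median was 0.05, beside -0.05 over all genes tested. Every one of the 10 genes lay within 0.5 of 0 on the log2 scale, as did 84.6% of all genes. The 95% interval of the change stayed between -1 and 1 for 9 genes, all but Cd34, and its half-width ran from 0.29 for Flt1 to 0.96 for Cd34. Each interval holds the changes compatible with the levels of 3 rats per group, without adjustment for the number of genes. It is not a limit of detection, and that of Kdr excluded 0.

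**Figure D1:**
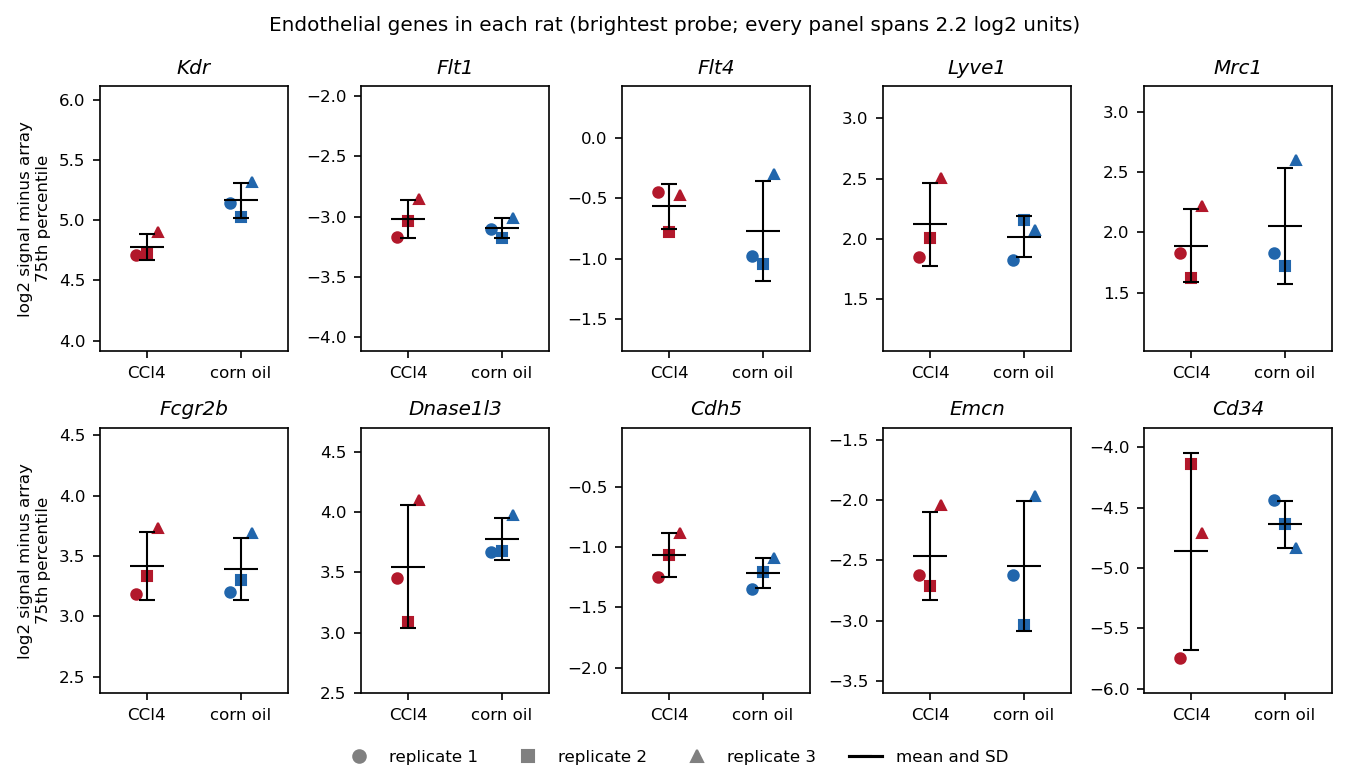
Level of each endothelial gene (log2 signal minus the array's 75th percentile, brightest probe) in the 3 CCl4 and the 3 corn oil livers, with one symbol per replicate and the group mean and SD in black. Every panel spans 2.2 log2 units, and Kdr is the gene whose groups do not overlap, with CCl4 livers at 4.71 to 4.90 and corn oil livers at 5.03 to 5.32.

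Kdr encodes VEGFR2, the main signalling receptor for VEGF-A on endothelium, and Flt1 encodes VEGFR1, which binds VEGF-A tightly and also exists as a soluble form that holds the ligand back. Flt4 encodes VEGFR3, the receptor for VEGF-C and VEGF-D on lymphatic vessels and liver sinusoids. Their promoters are shown because the groups did not overlap for Kdr and overlapped for both relatives, and because endothelial promoters commonly carry sites for ETS transcription factors. Each line gives 250 bases before and 50 bases after the RefSeq start of the gene in the GRCr8 assembly, 5′ to 3′ along the gene, with matches to the ETS motifs CCGGAA and AGGAAG on either strand in capitals. The windows are chr14:32571813-32572112 for Kdr, chr12:12333180-12333479 for Flt1 and chr10:34414584-34414883 for Flt4, all on the plus strand.
Kdr: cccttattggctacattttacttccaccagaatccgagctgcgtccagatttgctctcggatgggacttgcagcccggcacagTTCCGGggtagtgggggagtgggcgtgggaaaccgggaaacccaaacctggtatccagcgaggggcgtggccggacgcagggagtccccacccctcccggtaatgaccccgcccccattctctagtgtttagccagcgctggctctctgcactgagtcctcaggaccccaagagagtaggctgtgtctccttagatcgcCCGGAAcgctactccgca
Flt1: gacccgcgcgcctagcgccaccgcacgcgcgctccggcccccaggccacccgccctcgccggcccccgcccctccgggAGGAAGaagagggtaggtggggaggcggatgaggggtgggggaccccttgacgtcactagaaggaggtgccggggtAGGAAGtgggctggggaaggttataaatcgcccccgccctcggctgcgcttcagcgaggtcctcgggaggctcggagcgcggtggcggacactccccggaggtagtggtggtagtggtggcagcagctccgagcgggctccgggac
Flt4: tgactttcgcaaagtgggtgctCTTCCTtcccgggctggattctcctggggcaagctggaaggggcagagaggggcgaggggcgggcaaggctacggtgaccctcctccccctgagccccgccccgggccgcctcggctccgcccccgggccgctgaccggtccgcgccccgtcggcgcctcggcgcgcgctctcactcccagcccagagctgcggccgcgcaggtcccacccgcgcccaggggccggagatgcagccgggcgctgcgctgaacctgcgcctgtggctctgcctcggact
Kdr held 2 matches to CCGGAA and 0 to AGGAAG, at positions 84 and 283 counted from the first base of the window. Flt1 held 2 matches to AGGAAG, at positions 79 and 155, and Flt4 held 1, at position 23. Of the 8 endothelial genes with a RefSeq promoter in the table, 6 had a match to at least 1 of both motifs, beside 44.3% of 33469 rat promoters of this length. Among these 8, CCGGAA occurred in 1 and AGGAAG in 5, beside 15.0% and 34.5% of all promoters. The SP1 motif GGGCGG occurred in 5 of 8 (33.1% of all promoters), the SOX motif ACAAAG in 1, that of Dnase1l3 (18.8%), and the FOX motif TGTTTAC (3.78%) and the GATA motif AGATAA (11.6%) in 0. These matches describe letters in the window and do not show that a factor binds there. A link between the matches and the levels of the genes was not tested.

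Kdr was at 4.71, 4.73 and 4.90 in CCl4 livers and at 5.15, 5.03 and 5.32 in corn oil livers. Every CCl4 liver was below every corn oil liver, and the gap between the nearest animals was 0.12. The mean level was 4.78 ± 0.11 in CCl4 and 5.16 ± 0.15 in corn oil (SD, n = 3 each), a log2 change of -0.38 ± 0.12 (SE) with a 95% interval of -0.68 to -0.09. On the linear scale this is 76.6% of the corn oil signal, with an interval of 0.626 to 0.938 for the ratio. After Benjamini-Hochberg adjustment in limma Kdr did not pass (adjusted p = 0.171). Kdr was the only one of the 10 genes whose groups did not overlap, whereas the groups did not overlap for 27.4% of all genes tested, made up of 15.9% lower and 11.5% higher in CCl4. Kdr had only 1 probe, so its change could not be compared between probes. Blocking on slide gave -0.46 for Kdr (adjusted p = 0.382), as did the arrays of the first slide by themselves (adjusted p = 0.400).

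The other 2 VEGF receptor genes overlapped between the groups. On its brightest probe Flt1 was at -3.17, -3.04 and -2.86 in CCl4 livers and at -3.10, -3.18 and -3.01 in corn oil livers. The change was 0.08 ± 0.12, with the narrowest interval of the set, -0.21 to 0.36 (adjusted p = 0.757). The further Flt1 probes were at -0.12 ± 0.15 and -0.49 ± 0.38 in the fit per probe, so the sign of Flt1 depended on the probe. The dimmest of them was not well above background on CCl4 replicate 1. Flt4 was at -0.45, -0.78 and -0.47 in CCl4 livers and at -0.98, -1.04 and -0.30 in corn oil livers. Corn oil replicate 3 had the highest Flt4 level of all 6 animals, and the other corn oil rats had the lowest ones. The change of Flt4 was 0.21 ± 0.23 (interval -0.34 to 0.75; adjusted p = 0.634), while its dimmer probes gave -0.03 ± 0.38 and -0.08 ± 0.20.

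**Figure D2:**
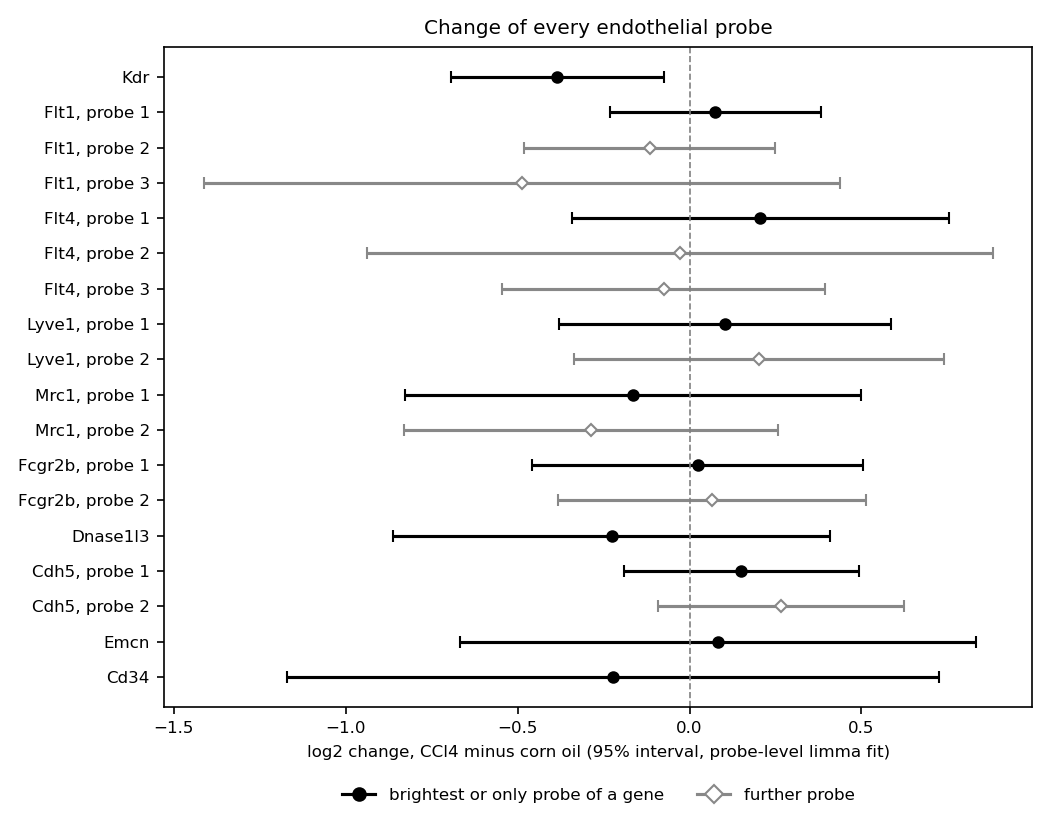
Log2 change of CCl4 minus corn oil for each of the 18 probes of the 10 endothelial genes, from the limma fit per probe, with 95% intervals. Filled circles are the brightest or only probe of a gene and open diamonds further probes, and the interval of Kdr alone lies wholly on one side of 0.

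Lyve1, a hyaluronan receptor of lymphatic and sinusoidal endothelium, was at 1.85, 2.01 and 2.51 in CCl4 livers and at 1.83, 2.15 and 2.07 in corn oil livers. CCl4 replicate 3 was the highest animal, and the remaining CCl4 rats lay among the corn oil ones. The change was 0.10 ± 0.20 (interval -0.37 to 0.58; adjusted p = 0.801), and the second Lyve1 probe gave 0.20 ± 0.22. Mrc1 encodes the mannose receptor, an endocytic lectin of sinusoidal endothelium and of macrophages. It was at 1.83, 1.62 and 2.22 in CCl4 livers and at 1.83, 1.72 and 2.60 in corn oil livers. Replicate 3 was the highest animal of both groups, and without corn oil replicate 3 the change of Mrc1 was 0.11, against -0.16 ± 0.27 over all animals (interval -0.83 to 0.50; adjusted p = 0.772). The second Mrc1 probe gave -0.29 ± 0.23.

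Fcgr2b, the inhibitory IgG receptor with which sinusoidal endothelium takes up immune complexes and which B cells and macrophages also carry, had the smallest change of the set. It was at 3.19, 3.34 and 3.74 in CCl4 livers and at 3.20, 3.30 and 3.69 in corn oil livers. Both groups spanned almost the same range, and the change was 0.02 ± 0.20 (interval -0.45 to 0.50; adjusted p = 0.957). Its second probe gave 0.07 ± 0.19. Fc gamma receptor genes are similar in sequence, so signal from a relative on these probes is uncertain. Dnase1l3 encodes a nuclease that is secreted into blood and digests DNA in chromatin fragments. It was at 3.45, 3.09 and 4.10 in CCl4 livers and at 3.67, 3.68 and 3.97 in corn oil livers. CCl4 livers held both the highest animal and the lowest ones, 2.01-fold apart on the linear scale, against 1.23-fold among corn oil livers. The change of Dnase1l3 was -0.23 ± 0.26 (interval -0.86 to 0.41; adjusted p = 0.655), and leaving out CCl4 replicate 2 gave 0.00168, whereas leaving out CCl4 replicate 3 gave -0.50.

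Cdh5 encodes VE-cadherin, the adhesion protein of endothelial junctions. It was at -1.25, -1.06 and -0.88 in CCl4 livers and at -1.35, -1.21 and -1.09 in corn oil livers. CCl4 replicate 1 lay among the corn oil rats, and the other CCl4 rats lay above all of them. The change was 0.15 ± 0.13 (interval -0.18 to 0.48; adjusted p = 0.561), and the dimmer probe gave 0.27 ± 0.15. Emcn encodes endomucin, a sialomucin of venous and capillary endothelium. It was at -2.62, -2.71 and -2.04 in CCl4 livers and at -2.62, -3.04 and -1.97 in corn oil livers. The corn oil animals were 2.10-fold apart, the change was 0.08 ± 0.31 (interval -0.67 to 0.83; adjusted p = 0.903), and every CCl4 liver lay within the range of the corn oil livers.

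Cd34, a sialomucin of vascular endothelium and of blood progenitors, is used in human liver as a marker of capillarised sinusoids. Its probe was well above background on 2 of 3 CCl4 arrays and on 3 of 3 corn oil arrays. The levels were -5.74, -4.13 and -4.71 in CCl4 livers and -4.44, -4.64 and -4.83 in corn oil livers. The array on which Cd34 was not well above background was CCl4 replicate 1, while CCl4 replicate 2 lay above the corn oil rats and CCl4 replicate 3 among them. The change was -0.22 ± 0.40 with an interval of -1.18 to 0.73 (adjusted p = 0.786), and it was 0.22 without CCl4 replicate 1. Under normexp background correction, which shrinks differences between dim spots, it was -0.10.

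With slide as a block, the 10 genes had a median of -0.19, and 9 of them ran from -0.46 for Kdr to 0.33 for Flt4. Cd34 was at -1.11, a value that rests on CCl4 replicate 1, where its spot was not well above background. The lowest adjusted p of the 10, that of Cd34, was 0.258 there and 0.222 within the first slide. Flt1 (-0.07), Lyve1 (-0.17), Fcgr2b (-0.21), Cdh5 (-0.03) and Emcn (-0.08) then had the opposite sign, in a fit that sets CCl4 replicate 1 against the corn oil rats. With slide as a random block they kept the sign reported, at 0.08, 0.12, 0.04, 0.16 and 0.09. No direction is given for these 5 genes, because their sign depended on the fit. The same holds for Mrc1, Dnase1l3 and Cd34, whose sign turned when 1 array was left out. Flt4 is also given no direction, because its dimmer probes were negative.

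Differences between rats of one group were larger than the differences between group means for most of the set. CCl4 replicate 3 had the highest level of its group for 8 of the 10 genes, Flt4 and Cd34 being the exceptions, and corn oil replicate 3 for 8 of 10, all but Lyve1 and Cd34. Among all genes tested these shares were 36.4% and 37.7%. The median difference from the corn oil mean over the 10 genes was -0.19, -0.04 and 0.31 in CCl4 replicates 1, 2 and 3 and -0.12, -0.10 and 0.18 in the corn oil replicates. Of 82 related endothelial genes tested, 44 (53.7%) were highest in CCl4 replicate 3 among CCl4 rats and 39 (47.6%) were highest in corn oil replicate 3 among corn oil rats. The genes share the same 6 RNA samples and are not independent of each other. Markers of some other cells shared part of this order, and those of others did not. The mean level of 14 Kupffer cell and macrophage genes was 2.16, 2.29 and 2.54 in CCl4 replicates 1, 2 and 3 and 2.29, 2.59 and 2.67 in the corn oil replicates. For 6 B cell genes it was -2.16, -2.13 and -1.78 in the CCl4 replicates and -1.82, -1.78 and -1.72 in the corn oil replicates. For 10 hepatocyte genes it was 6.91, 6.73 and 7.21 in the CCl4 replicates and 7.35, 7.03 and 7.12 in the corn oil replicates, so replicate 3 was highest among CCl4 rats but not among corn oil rats. For 13 stellate cell and fibroblast genes it was 0.82, 0.86 and 0.23 in the CCl4 replicates. In the corn oil replicates it was 0.23, 0.44 and 0.14, so replicate 3 was lowest in both groups. For 5 bile duct genes it was -2.25, -2.23 and -2.16 in the CCl4 replicates. Their corn oil replicates were at -2.33, -2.35 and -2.43, with replicate 3 lowest. The part of these cells in the endothelial levels was not tested.

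**Figure D3:**
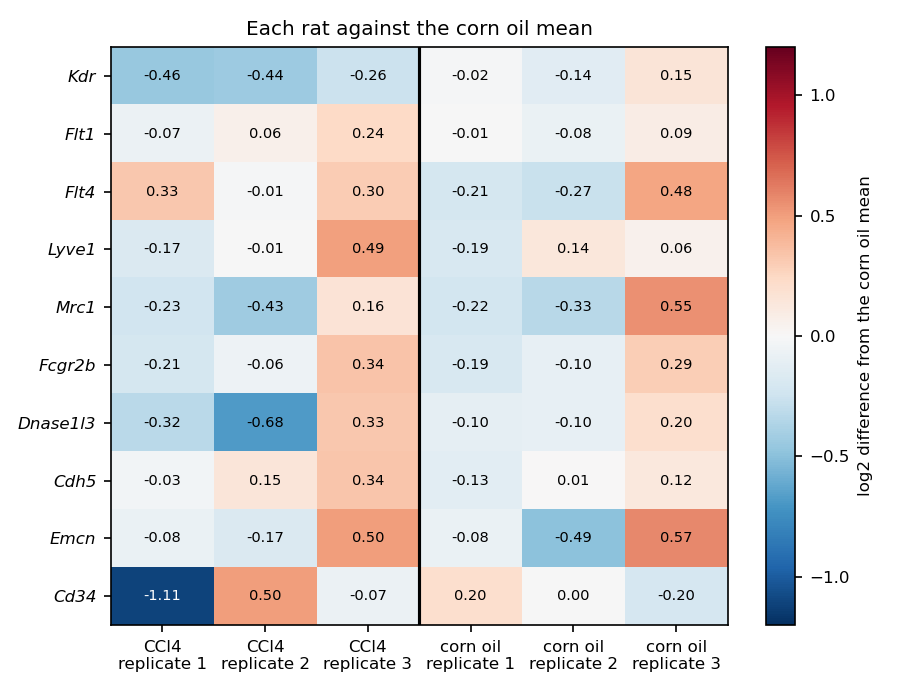
Difference of each rat from the corn oil mean of the same gene, on the log2 scale, for the 10 endothelial genes, with the 3 CCl4 rats on the left and the 3 corn oil rats on the right. The columns of both replicates 3 are mostly positive, with medians of 0.31 in CCl4 and 0.18 in corn oil, and the row of Kdr is negative in every CCl4 rat.

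Related endothelial genes were read from 6 further lists, also chosen with earlier results of these data known. The lists held 104 genes besides the 10, of which 87 had a probe and 82 were tested. None of the 82 changed at an adjusted p below 0.05 in limma, 12 had an unadjusted p below 0.05 (14.6%, beside 19.7% of all genes), and their median change was -0.01. The groups did not overlap for 16 of them (19.5%), 6 higher and 10 lower in CCl4, beside 27.4% of all genes. Blocking on slide gave a median of -0.11 for these genes, as did the first slide by itself, and again 0 passed.

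Among VEGF and angiopoietin ligands 0 of 8 tested genes passed, with a median of 0.14. Vegfa, the ligand of Kdr and Flt1, was at 4.13, 4.19 and 4.15 in CCl4 livers and at 5.00, 4.66 and 4.53 in corn oil livers. The groups did not overlap on any of its 6 probes, which gave changes of -0.59 to -0.42. On the brightest probe the change was -0.58 ± 0.14 (interval -0.92 to -0.23; adjusted p = 0.108), and with slide as a block -0.60 (adjusted p = 0.346). Vegfb, a ligand of Flt1, was at 1.43, 1.22 and 0.67 in CCl4 livers and at 0.35, 0.74 and 0.70 in corn oil livers (0.51 ± 0.22; adjusted p = 0.266). On this brightest Vegfb probe CCl4 replicate 3 lay among the corn oil rats, and blocking on slide gave 0.83. Of its 3 probes 2 were tested, and the dimmer of these gave 0.50 with CCl4 livers above corn oil livers without overlap. Vegfc, a ligand of Flt4, had a change of -0.03 ± 0.14 (interval -0.36 to 0.31; adjusted p = 0.932), and 0.18 with the slide block. The TIE2 ligand gene Angpt1 was at 0.65 ± 0.26 (adjusted p = 0.244) and Apln, which encodes the ligand of the apelin receptor, at 0.60 ± 0.41 (adjusted p = 0.446). Angpt1 was at 0.25 under normexp background correction and at 0.33 in the fit blocked on slide.

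None of 6 co-receptor and TIE receptor genes passed, and the groups overlapped for each. Nrp1, a VEGF co-receptor, had a change of 0.22 ± 0.14 (adjusted p = 0.424), Tek, which encodes the angiopoietin receptor TIE2, 0.19 ± 0.35 (adjusted p = 0.803), and its relative Tie1 0.19 ± 0.20 (adjusted p = 0.610). With slide as a block these 3 genes had negative values, of -0.01, -0.44 and -0.16. The second Tek probe gave -0.25 in the fit per probe.

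Of 24 pan-endothelial genes 0 passed, with a median of 0.02 and 22 within 0.5 of 0. Pecam1, an adhesion protein of the endothelial border, averaged 1.46 ± 0.13 in CCl4 livers and 1.46 ± 0.05 in corn oil livers (SD, n = 3 each). The change was -0.01 ± 0.11 (interval -0.27 to 0.26; adjusted p = 0.977), although its dimmer probe gave 0.35. The endothelial transcription factor genes Erg (-0.05 ± 0.12; adjusted p = 0.849) and Sox18 (-0.18 ± 0.22; adjusted p = 0.677) overlapped between groups. The largest values were those of Procr, the endothelial protein C receptor, and Ednrb, an endothelin receptor that stellate cells also express. Procr was at -1.24, -0.23 and -1.19 in CCl4 livers and at -1.65, -2.67 and -2.33 in corn oil livers, a change of 1.33 ± 0.36 (interval 0.45 to 2.21; adjusted p = 0.132). Ednrb was at 0.50, 1.41 and 0.19 in CCl4 livers and at -0.49, -0.14 and -0.62 in corn oil livers, a change of 1.12 ± 0.32 (adjusted p = 0.147). For both genes every CCl4 liver was above every corn oil liver on both probes. Nos3, the endothelial nitric oxide synthase gene, was at 0.47 ± 0.25 (adjusted p = 0.336) and at 0.28 under normexp. With slide as a block Erg was at 0.01, Sox18 at -0.38 and Pecam1 at -0.16.

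Other sinusoidal genes had a median of 0.01, with 0 of 19 past the threshold. Gata4, a transcription factor gene that in mouse keeps liver endothelium sinusoidal, was at 0.77, 0.61 and 0.57 in CCl4 livers and at 1.00, 1.01 and 1.40 in corn oil livers (-0.49 ± 0.14; adjusted p = 0.154), without overlap. Il6st, the shared receptor subunit of interleukin-6 cytokines, had a change of -0.47 ± 0.12 (adjusted p = 0.114), while one of its 4 probes gave 0.21. Cd14, a lipopolysaccharide receptor also carried by macrophages, had a change of -0.69 ± 0.39 (adjusted p = 0.364) with overlapping groups, and of -0.27 with the slide block. The scavenger receptor genes Stab1 and Stab2 and the lectin gene Clec4g had no probe paired by accession and were not analysed here.

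Among large-vessel, capillarised and activated endothelial genes 0 of 21 passed, with a median of -0.14. The Notch ligand gene Jag1 ran between -2.42 and -2.19 in CCl4 livers and between -1.83 and -1.12 in corn oil livers, without overlap (-0.91 ± 0.20; interval -1.41 to -0.42; adjusted p = 0.0956). Notch1, the receptor gene, had a change of -0.94 ± 0.40 with overlapping groups (adjusted p = 0.259), while its second probe gave -0.20. Esm1, which VEGF induces in endothelium, was at -2.36, -2.27 and -1.11 in CCl4 livers and at -2.59, -3.01 and -2.93 in corn oil livers (0.93 ± 0.35; adjusted p = 0.223), with CCl4 replicate 3 far above the others and a change of 0.48 in the fit blocked on slide. Plvap, which encodes the protein of fenestral diaphragms, had a change of 0.05 ± 0.12 (interval -0.25 to 0.35; adjusted p = 0.863). Vwf had no probe paired by accession and was not analysed here.

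Of 7 lymphatic endothelial genes 0 passed, with a median of -0.09. Mmrn1, a multimerin gene, was at -4.37, -4.25 and -4.05 in CCl4 livers and at -3.44, -3.84 and -3.48 in corn oil livers, a change of -0.63 ± 0.15 without overlap (adjusted p = 0.106). Under normexp background correction Mmrn1, a dim signal, was at -0.21. Ccl21, a chemokine of lymphatic vessels and lymph nodes, had a change of 0.98 ± 0.37 (adjusted p = 0.225) without overlap. Reln had a change of 0.24 ± 0.13 (adjusted p = 0.345), also without overlap on its brightest probe. The groups were apart on 1 of the 3 Reln probes, which gave 0.12 to 0.24. Blocked on slide, Ccl21 was at 0.40 and Reln at 0.13. Prox1, the lymphatic master transcription factor, which hepatocytes also express, was at -0.20 ± 0.22 (adjusted p = 0.632).

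**Figure D4:**
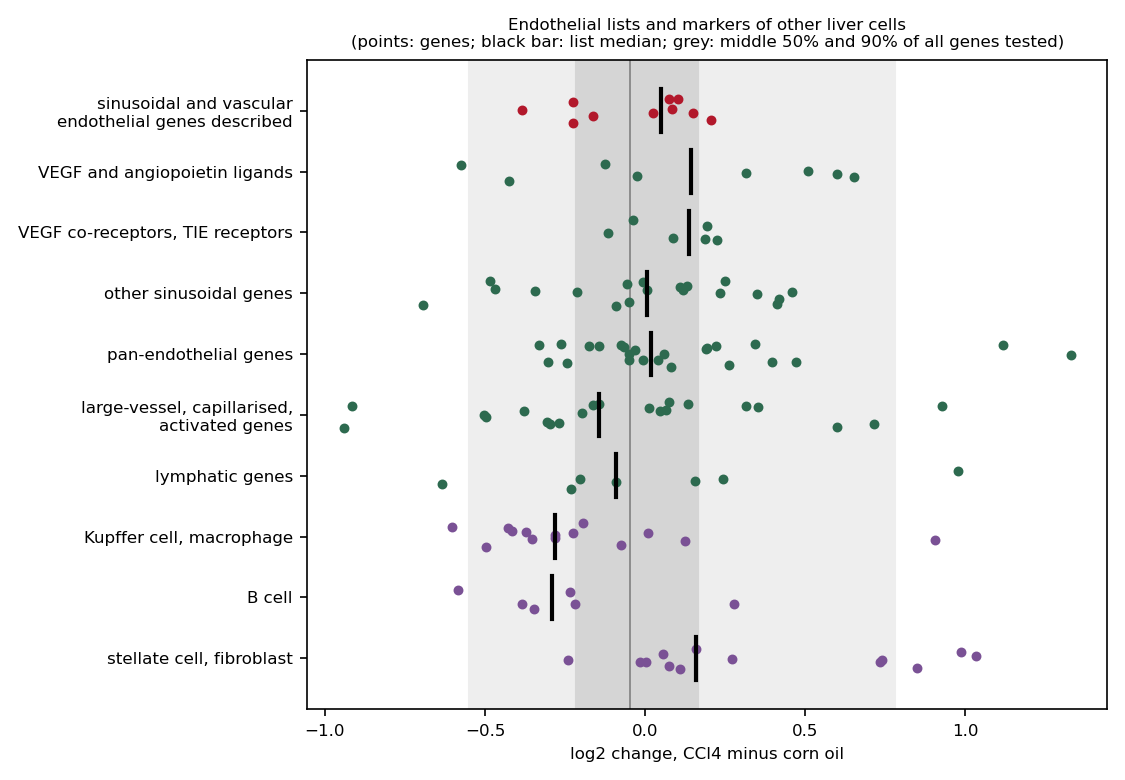
Log2 change of CCl4 minus corn oil for the genes tested in each endothelial list and in 3 lists of other liver cells, with the list median as a black bar. Grey bands hold the middle 50% and 90% of all 11933 genes tested, and the 10 endothelial genes on top lie between -0.38 and 0.21, inside the wider band of -0.55 to 0.78.

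Markers of other cells that carry some of the same proteins were read beside the endothelial genes. Of 14 Kupffer cell and macrophage genes tested 0 passed, 11 had a negative change and the median was -0.28, or -0.42 with slide as a block. Their mean level ran from 2.16 to 2.54 over CCl4 livers and from 2.29 to 2.67 over corn oil livers. Clec4f (-0.35 ± 0.14; adjusted p = 0.246), Vsig4 (-0.50 ± 0.21; adjusted p = 0.262), Cd163 (-0.42 ± 0.23; adjusted p = 0.353) and C1qc (-0.60 ± 0.15; adjusted p = 0.110) were on the negative side and Marco (0.91 ± 0.24; adjusted p = 0.129) on the positive side. In the slide-blocked fit Vsig4 was at -0.82 and Cd163 at -0.74. Of 11 recruited macrophage genes 4 were higher in CCl4 past the adjusted threshold, beside 0.561% of all genes, and these were Lgals3, Gpnmb, Trem2 and Mmp12. This list was chosen with earlier results of these data known, so the count is a description and not a test. None of the 4 passed when slide was a fixed block, or when CCl4 replicate 1 or CCl4 replicate 2 was left out. All 4 passed when slide was a random block, and Gpnmb passed in 8 of 17 alternatives. Mmp12 was not well above background on any corn oil array and passed the filter through the CCl4 arrays. It also passed with no filter on dim probes, and the filter on all 6 arrays removed it. Its change was 6.63, and 2.87 under normexp background correction, so the size of the change is uncertain. No list mean is given.

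Of 6 B cell genes 0 passed, 5 had a negative change and the median was -0.29, with mean levels of -2.16 to -1.78 over CCl4 livers and -1.82 to -1.72 over corn oil livers. Pax5 (-0.58 ± 0.13; adjusted p = 0.0964), a B cell transcription factor gene, did not overlap between groups. The antigen receptor gene Cd79b (-0.38 ± 0.20; adjusted p = 0.337) and Cd22 (-0.35 ± 0.23; adjusted p = 0.443) overlapped. Of 13 stellate cell and fibroblast genes 0 passed, 11 had a positive change and the median was 0.16, or 0.54 with slide as a block. Their mean level ran from 0.23 to 0.86 over CCl4 livers and from 0.14 to 0.44 over corn oil livers, with CCl4 replicate 3 at the low end. Among them Col1a2 (0.99 ± 0.18; adjusted p = 0.0724), Des (0.85 ± 0.23; adjusted p = 0.129) and Dcn (1.03 ± 0.37; adjusted p = 0.214) had the largest values. Col1a2 passed in 2 alternative fits, one after normexp correction (adjusted p = 0.0474) and one that left out CCl4 replicate 3 (adjusted p = 0.0380).

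Of 5 bile duct genes 0 passed, with a median of 0.01 and mean levels of -2.25 to -2.16 over CCl4 livers and -2.43 to -2.33 over corn oil livers. Epcam was at 0.52 ± 0.14 (adjusted p = 0.127), Cftr at 0.50 ± 0.29 (adjusted p = 0.375) and Krt19 at -0.17 ± 0.16 (adjusted p = 0.565). Cftr was at -0.03 with slide as a block and at 0.20 under normexp. Of 10 hepatocyte genes 0 passed, 8 had a negative and 2 a positive change, and the median was -0.23. Mean levels were 6.73 to 7.21 over CCl4 livers and 7.03 to 7.35 over corn oil livers. Alb was at -0.21 ± 0.14 (adjusted p = 0.434), and Apoa1 (-0.53 ± 0.18; adjusted p = 0.198), Cyp2e1 (-0.40 ± 0.23; adjusted p = 0.370) and Apoc3 (-0.39 ± 0.17; adjusted p = 0.258) had the largest values of that list. The part of these markers in the endothelial levels was not tested.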

How the data were processed

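Liver RNA of 6 rats was measured on 1-colour Agilent arrays. Per the file headers, the authors read the spots with Agilent Feature Extraction 10.7.1.1 (10.7 in the submitters' processing notes), and the deposited intensity values are background-subtracted and not scaled between arrays. Per the file headers, further columns flag spots that are bright enough, saturated or outliers. The authors' value table is a linear ratio proportional to that signal, with divisors of 583.3 to 676.5 and column medians of 0.103 to 0.110, and its scaling was inferred from the values.

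Of 61537 probes besides 1439 control spots, 28193 (45.8%) matched 1 symbol through RefSeq accessions in a GRCr8 gene table. The array design names rn4, so no probe coordinates are given. Control spots and 26 outlier-flagged probes were left out. Log2 signals minus each array's 75th percentile entered limma 3.58.1 under R 4.3.3, using lmFit and eBayes with two-sided tests. Benjamini-Hochberg adjustment ran over every gene, or every probe, well above background on at least 3 arrays, and a gene was represented by its brightest probe. Errors after ± are SE for changes and SD for means, and intervals are 95%. The fit was tested on simulated data. Saturation affected 0 to 4 probes per array, and 3 arrays per group limit the precision.

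Groups came from the treatment label and replicate numbers from titles. Labels of the treatment protocol speak of separate animals. Text names the 10 genes, and per further list every gene that passed, the 3 largest changes among genes above background on all arrays and 20 fixed genes. Members, lists and this rule were chosen with earlier results of these data known. Promoters are from RefSeq (GRCr8). Alternatives were quantile and median scaling, normexp (offset 50, on median signals), the authors' values, other filters, probe means, slide or replicate blocks, the first slide alone and leaving out each array. Python 3.11.15, pandas 2.3.3, scipy 1.17.1, matplotlib 3.10.9 and statmod 1.5.0 were also used.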

Additional observations from a re-analysis of the deposited data

How the results depend on the processing

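Over 17 alternatives the 10 endothelial genes gave 169 values, of which 0 passed at an adjusted p below 0.05 (lowest 0.141, Kdr under normexp), and 24 had the opposite sign to the value reported. Kdr ran from -0.46 to -0.31, and Flt4 also kept its sign. Because the groups of Kdr did not overlap, leaving out an array could not turn its sign. The replicate block and the other filters on dim signal left each change they gave as reported, so no sign could turn there. The fixed slide block and the first slide gave the same changes, so signs turned there are counted under both. Fcgr2b was at -0.00583 under median scaling and -0.0542 under normexp. Flt1 was at -0.0388 under normexp and -0.18 with probe means. With slide as a fixed block, and equally within the first slide, values were -0.0736 for Flt1, -0.17 for Lyve1, -0.21 for Fcgr2b, -0.0329 for Cdh5 and -0.0794 for Emcn. Leaving out each array in turn gave ranges of -0.00645 to 0.15 for Flt1, -0.0894 to 0.24 for Lyve1, -0.33 to 0.11 for Mrc1, -0.13 to 0.17 for Fcgr2b, -0.50 to 0.00168 for Dnase1l3, -0.16 to 0.37 for Emcn and -0.59 to 0.22 for Cd34. Cd34 had no value under the filter on all 6 arrays. Related endothelial genes past the threshold stayed at 0 under all 17, and their median was -0.06 to 0.04 when an array was left out.

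The count of all genes changed, 76, was 217 under normexp, 140 with the filter on all 6 arrays, 4 with slide as a fixed block, 0 by limma within the first slide (1598 at an unadjusted p below 0.05). With slide as a random block the count was 105. It was 6, 2 and 241 without CCl4 replicate 1, 2 or 3, and 27, 43 and 5 without corn oil replicate 1, 2 or 3. The cause was not tested. Deviations of same-numbered rats from their group means correlated at -0.05, 0.16 and 0.02. Those of differently numbered rats correlated at -0.18 to 0.15. Values this close to each other do not decide whether replicate numbers pair the rats. With the replicate block 10 genes changed and 0 of the 10 endothelial genes. With 3 rats per group, changes inside the intervals given remain compatible with these data.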
